A study of Arabidopsis thaliana with 12 samples.

Results

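The genes described here are 103 Arabidopsis thaliana genes that carry no name other than a locus tag in the array's annotation table. Their signal was lower on lincomycin in wild-type seedlings and moved little on lincomycin in gun1-101 seedlings. The members were chosen on measured values: a mean log2 signal of at least 7 in untreated Col-0, a lincomycin minus control difference of at most -1.2 in Col-0, and a difference between -0.5 and 0.5 in gun1-101. Of 16548 genes tested, 14743 had only a locus tag, 6555 of these reached the signal level, 197 of these passed the Col-0 difference, and 103 also passed the gun1-101 window. Because the choice used the levels in untreated Col-0 and the lincomycin differences in both genotypes, those values are given below as a description with no test. The working name of the set, genes repressed by lincomycin through GUN1, goes further than the rule, which only compares signals between groups. They are therefore called the locus-tag set.

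Seedlings of the wild type Col-0 and of the mutant gun1-101 were raised with or without the antibiotic, and total RNA of whole seedlings was hybridised to Affymetrix arrays, 3 biological replicates in each of 4 groups. Both Col-0 groups and both gun1-101 groups were sown on Murashige and Skoog plates, kept in the cold for 2 days, lit for 8 h to start germination, grown in darkness for 5 days and then in continuous light for 2 days, and had a labelled age of 7 days. The treated groups were sown directly on 0.5 mM lincomycin, so the drug was present from sowing, and the control groups had none (0 mM). The labels call the replicates biological and say no more about how they were separated, and every gun1-101 seedling stands for 1 mutant allele.

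Lincomycin blocks protein synthesis inside plastids. GUN1 is a plastid pentatricopeptide repeat protein that takes part in signalling from the plastid to the nucleus. In wild-type seedlings, damage to plastids early in development is known to lower the transcripts of many nuclear photosynthesis genes, and gun mutants are known for keeping part of that expression. GUN1 itself was not analysed here, so the genotype labels were not checked on the targeted gene. Whole seedlings hold several tissues, and fewer cells of a type and less RNA per cell cannot be told apart in these values.

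Tissue markers were few. Both measured green-tissue markers, the antenna gene LHB1B2 and the Rubisco activase gene RCA, had log2 means of 11.70 and 11.75 in untreated Col-0, and the root hair expansin genes EXPA7 and EXPA18 had 7.04 and 6.03. The shoot meristem gene CLV3 had 3.26, and none of the flower, seed or vasculature markers was measured. On lincomycin EXPA7 differed by -0.06 in Col-0 and 0.53 in gun1-101, and EXPA18 by 0.11 and -0.45. The 2 root markers thus moved in opposite directions in gun1-101, with 0 called in either genotype. Of 3 measured genes for stomatal development, limma called SPCH and FMA lower in Col-0 on lincomycin, at -0.70 and -0.76, and MUTE higher in gun1-101, at 0.78. None of the 3 was called for a difference in response between the genotypes, and their part in the members' values was not tested.

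One array stood apart. Untreated Col-0 replicate 1 correlated at 0.979 on average with the rest of its group, and the other arrays at 0.985 to 0.991 with theirs. Lincomycin-treated Col-0 replicate 3 was among those at 0.985. The medians of the 12 arrays lay between 6.59 and 6.70. Both arrays also differed from their group at the locus-tag set, as the values by array show, so results that rest on them are given with and without them.

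Over the 103 members, the Col-0 difference ranged from -5.03 to -1.21 on the log2 scale, with a median of -1.496 and quartiles of -1.87 and -1.34. In gun1-101 the difference ranged from -0.47 to 0.495 with a median of -0.05, and it was above 0 in 50 members and below 0 in 53. All 3 treated Col-0 arrays lay below all 3 untreated Col-0 arrays in 95 of the 103, against 12.6% of all tested genes, an order that the rule favours. Limma's moderated test with Benjamini-Hochberg adjustment over all 16548 genes called 101 members lower in Col-0 at an adjusted p under 0.05, where 7.19% of all tested genes were called lower. Since the rule used this contrast, nothing is read from that count. AT1G65490 and AT5G45700 were the pair not called, and both had wide spreads among the Col-0 arrays.

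**Figure D1:**
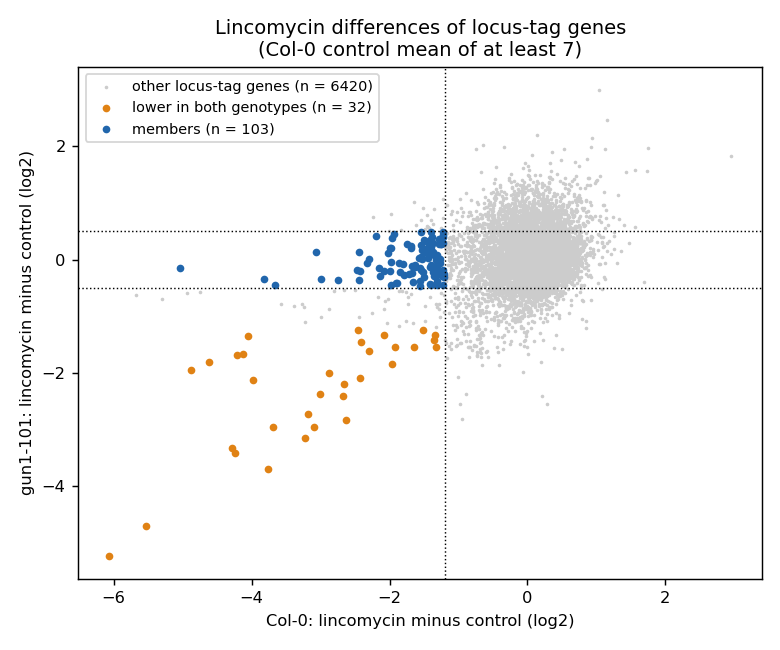
Lincomycin minus control difference in gun1-101 (vertical axis, log2) against that in Col-0 (horizontal axis, log2), each point 1 of the 6555 locus-tag genes that reached the signal level (members blue, 32 genes lower in both genotypes orange, others grey) and each value a difference of means over 3 arrays, with dotted lines at the thresholds. The members span -5.03 to -1.21 across and stay between -0.47 and 0.495 upward, which the rule fixed.

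In gun1-101 the same limma test called 3 members lower, with 9.51% of all tested genes called lower, and 0 members higher, with 10.9% called higher. These were AT3G10060 at -0.42, AT5G66520 at -0.47 and AT5G42070 at -0.45, the first of them named after its value was seen. At an unadjusted p under 0.05, 8 of 103 members were lower in gun1-101, as were 2868 of all 16548 genes, and the rule kept out larger differences. All treated gun1-101 arrays lay below all untreated ones in 21 members (20.4%) and above them in 21 (20.4%). Over all tested genes the shares were 24.2% below and 21.7% above, so nothing about the members is read from these counts. The difference between the genotypes in the lincomycin response was called above 0 in 84 members against 4.01% of all tested genes, again in a contrast that the rule used. On lincomycin itself, the signal in gun1-101 exceeded that in Col-0 by a median of 1.17 on the log2 scale, with a range of -0.11 to 4.32. Limma called 78 of the 103 members higher in treated gun1-101 than in treated Col-0, as it did 848 of all 16548 genes, so the remaining members had no called difference there. In 90 members every treated gun1-101 array lay above every treated Col-0 array, against 12.9% of all tested genes. Both counts again follow in part from the rule.

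For AT3G51230 and AT2G40260 the label of the set does not describe the data, since their treated gun1-101 means lay below the treated Col-0 means. AT3G51230 measured 7.04, 8.00 and 7.81 in untreated Col-0, 6.13, 6.68 and 6.42 in treated Col-0, 6.62, 6.42 and 6.71 in untreated gun1-101, and 6.44, 6.14 and 6.41 in treated gun1-101. Its signal in the mutant was low with or without the drug. AT2G40260 measured 7.44, 7.93 and 7.57 in untreated Col-0, 6.38, 6.50 and 6.38 in treated Col-0, 6.69, 7.45 and 6.18 in untreated gun1-101, and 5.93, 6.45 and 6.57 in treated gun1-101. On lincomycin the arrays of the genotypes overlapped for both genes. They also overlapped for AT3G16530, whose treated gun1-101 mean was 0.39 above the treated Col-0 mean.

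AT4G22513 had the lowest Col-0 difference on the log2 scale. Its probe set read 6.14, 8.06 and 7.75 in untreated Col-0 and 2.05, 2.27 and 2.53 in treated Col-0. The gun1-101 arrays read 6.40, 7.20 and 6.66 without the drug and 7.04, 6.90 and 5.88 with it. Only the treated Col-0 arrays were low, and the remaining groups overlapped. The Col-0 difference was -5.03 ± 0.45 (SE from the limma fit, n = 3 and 3), and the gun1-101 difference was -0.14. Its treated Col-0 mean of 2.29 was close to the lowest of any tested gene in that group, 1.70, and signal over background was not assessed, so no fold is given.

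AT1G26761 also had low signals in treated Col-0. Untreated Col-0 arrays gave 7.43, 7.20 and 7.35, treated Col-0 arrays 3.71, 3.14 and 3.66, untreated gun1-101 arrays 7.42, 7.55 and 7.23, and treated gun1-101 arrays 7.07, 6.85 and 7.26. The gap between the treated and untreated Col-0 arrays was many times the spread within either group. Its Col-0 difference was -3.83 ± 0.17 (SE), without a fold for the same reason, at a treated Col-0 mean of 3.50. AT1G70820 read 8.88, 9.07 and 8.98 in untreated Col-0 and 6.03, 4.78 and 5.13 in treated Col-0, against 8.87, 8.90 and 8.84 and then 8.36, 8.40 and 8.54 in gun1-101. Here the treated gun1-101 arrays also lay below the untreated ones, without overlap, by 0.44 against 3.66 in Col-0. The Col-0 fold was 12.7.

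AT1G78995 had 9.26, 9.39 and 8.76 in untreated Col-0, 6.15, 5.91 and 6.14 in treated Col-0, 9.09, 9.05 and 8.43 in untreated gun1-101 and 8.97, 8.75 and 9.25 in treated gun1-101. Both gun1-101 groups overlapped each other, and the Col-0 groups stood 8.39-fold apart. AT2G42220 was the most even of these genes, at 10.72, 10.91 and 10.94 in untreated Col-0, 7.89, 7.78 and 7.93 in treated Col-0, 10.49, 10.57 and 10.64 in untreated gun1-101 and 10.10, 10.20 and 10.37 in treated gun1-101. Its Col-0 difference was -2.99 ± 0.12 (SE), a 7.95-fold lower signal. The 4 groups of AT2G42220 did not overlap, and the small step in gun1-101 was -0.34.

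Of the 103 members, 4 had a Col-0 difference of -3 or below, 13 lay between -3 and -2, 34 between -2 and -1.5, and 52 between -1.5 and -1.2. Altogether 17 were at least 4-fold lower. Beyond the genes above, AT1G73600, AT4G27700, AT2G32550, AT1G23130, AT1G75460 and AT3G46490 had Col-0 differences from -2.47 to -2.30. AT4G27700 was the tightest of these, with untreated Col-0 at 10.53, 10.83 and 10.74, treated Col-0 at 8.25, 8.10 and 8.42, untreated gun1-101 at 10.19, 10.19 and 10.15, and treated gun1-101 at 9.84, 9.69 and 9.96. In it, too, no group overlapped another. AT3G46490 was the widest of them, with 7.53, 8.27 and 7.83 in untreated Col-0, 5.08, 5.45 and 6.20 in treated Col-0, 7.50, 6.80 and 8.09 in untreated gun1-101, and 6.95, 7.87 and 7.60 in treated gun1-101. Its treated Col-0 arrays were still the lowest.

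**Figure D2:**
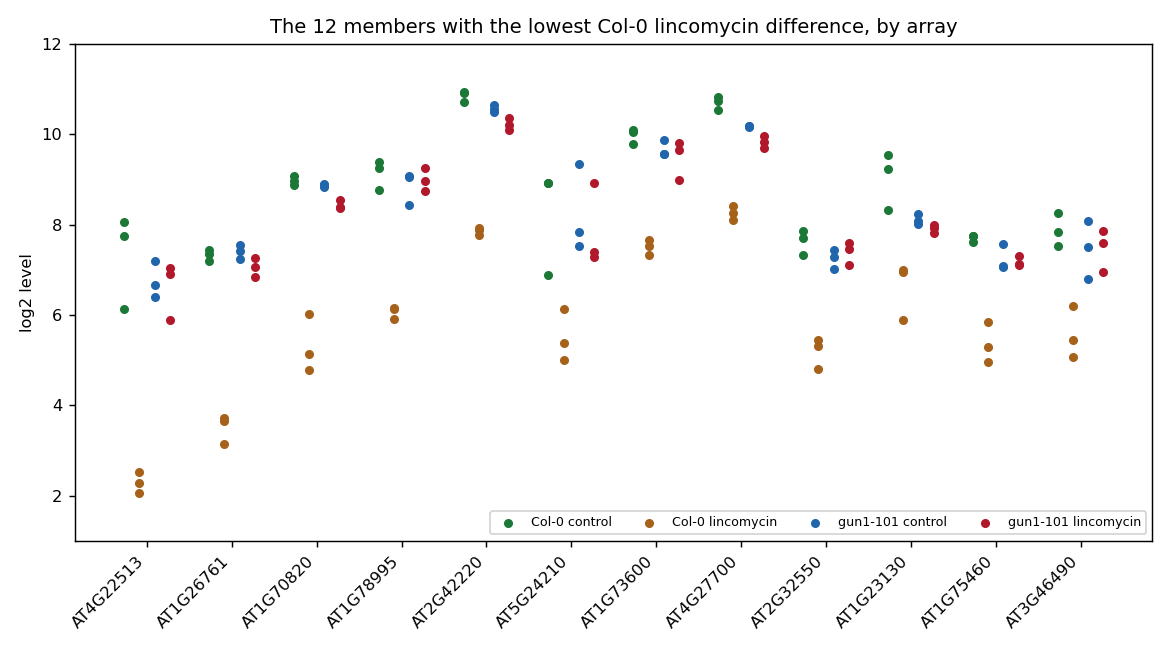
Log2 signal (vertical axis) of each array for the 12 members with the lowest Col-0 differences (horizontal axis, from AT4G22513 at -5.03 on), each point 1 array, coloured by group. At each gene the treated Col-0 arrays are the low ones, and the treated gun1-101 arrays sit near the untreated arrays.

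Only 2 members have a name in RefSeq. AT1G52220 is CURT1C (CURVATURE THYLAKOID 1C), one of a family of plastid membrane proteins that curve the thylakoid at the edges of grana. Its arrays read 11.32, 11.74 and 11.64 in untreated Col-0, 9.35, 9.45 and 9.94 in treated Col-0, 11.21, 11.24 and 11.15 in untreated gun1-101 and 11.09, 11.21 and 11.15 in treated gun1-101. The Col-0 difference was -1.98 ± 0.16 (SE), a 3.96-fold lower signal, while the gun1-101 groups overlapped at a difference of -0.05. AT2G41480 is PRX25, peroxidase 25, of the plant class of secreted peroxidases, and is given here because RefSeq names it. It measured 7.94, 8.04 and 8.42 in untreated Col-0, 6.94, 6.75 and 6.98 in treated Col-0, 7.57, 7.58 and 7.51 in untreated gun1-101, and 7.16, 7.11 and 7.52 in treated gun1-101. For PRX25 the Col-0 difference was -1.25 ± 0.15 (SE), and the mutant's untreated arrays all lay below those of untreated Col-0. No role is given for the other members, since the annotation used here names none.

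Probe sets with the strongest signal in the set were AT2G35260, CURT1C, AT5G38980, AT3G48420 and AT5G66530. AT2G35260 read 11.74, 11.70 and 11.65 in untreated Col-0, 10.28, 9.95 and 10.25 in treated Col-0, 11.63, 11.71 and 11.67 in untreated gun1-101 and 11.66, 11.76 and 11.73 in treated gun1-101. Its 3 groups other than treated Col-0 overlapped, and its Col-0 difference was -1.54 ± 0.12 (SE). The other 3, AT5G38980, AT3G48420 and AT5G66530, had Col-0 differences of -1.34, -1.63 and -1.66 and gun1-101 differences of 0.07, -0.13 and -0.40. Over all members, untreated Col-0 means ran from 7.10 to 11.70, with 38 at 10 or more and 15 under 8. Signals of different probe sets are not compared here as transcript levels.

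The thresholds passed through a continuous range of values. At the signal threshold, AT4G12870 (7.10), AT3G09680 (7.17) and AT2G39560 (7.17) were inside, and AT1G53542 (6.96), AT2G22200 (6.90) and AT4G11900 (6.87) outside. At the Col-0 threshold, AT4G20760 (-1.21), AT3G51230 (-1.21) and AT5G13720 (-1.22) were inside, and AT4G32590 (-1.19), AT2G17972 (-1.185) and AT5G07020 (-1.17) outside. On the low side of the gun1-101 window, AT5G66520 (-0.47), AT2G40260 (-0.45) and AT5G42070 (-0.45) were inside and AT4G01580 (-0.505), AT2G05160 (-0.54) and AT4G12830 (-0.54) outside. On its high side, AT2G24395 (0.495), AT5G13720 (0.48) and AT3G09680 (0.48) were inside and AT1G68238 (0.51), AT2G38870 (0.52) and AT1G29700 (0.54) outside. The rule also names AT2G34620 and AT3G58060 to be left out, and neither met it: AT2G34620 had a gun1-101 difference of -0.63, and AT3G58060 a control mean of 6.36.

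Spread among replicates was uneven between the genotypes. Over the members the median SD was 0.32 in untreated Col-0 and 0.35 in treated Col-0, against 0.11 in untreated and 0.13 in treated gun1-101. Over all tested genes the medians were 0.22, 0.20, 0.16 and 0.15 in the same order. In 92 of the 103 members the largest SD of the 4 was in a Col-0 group. An SD over 0.5 occurred in a Col-0 group for 33 members and in a gun1-101 group for 11.

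The spread followed the arrays. Median member signals in untreated Col-0 were 9.23 in replicate 1, 9.91 in replicate 2 and 9.79 in replicate 3. In treated Col-0 they were 7.86, 7.79 and 8.42. The 6 gun1-101 arrays lay between 9.12 and 9.28. Untreated Col-0 replicate 1 was the lowest of its group in 86 members, and treated Col-0 replicate 3 was the highest of its group in 83. Their median deviations from the group means were -0.33 and 0.34. For the 6555 locus-tag genes that reached the signal level, the same deviation of untreated Col-0 replicate 1 was -0.004. For 20 measured genes of photosynthesis lists it was -0.09, and for the 32 locus-tag genes lower in both genotypes it was -0.23. Another 42 passed both Col-0 thresholds, with gun1-101 differences between those of the members and of the 32. For these 42 it was -0.19. The deviation of treated Col-0 replicate 3 in these sets, in the same order, was 0.008, 0.19, -0.08 and 0.20. The shifts of these arrays are therefore not called particular to the members.

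**Figure D3:**
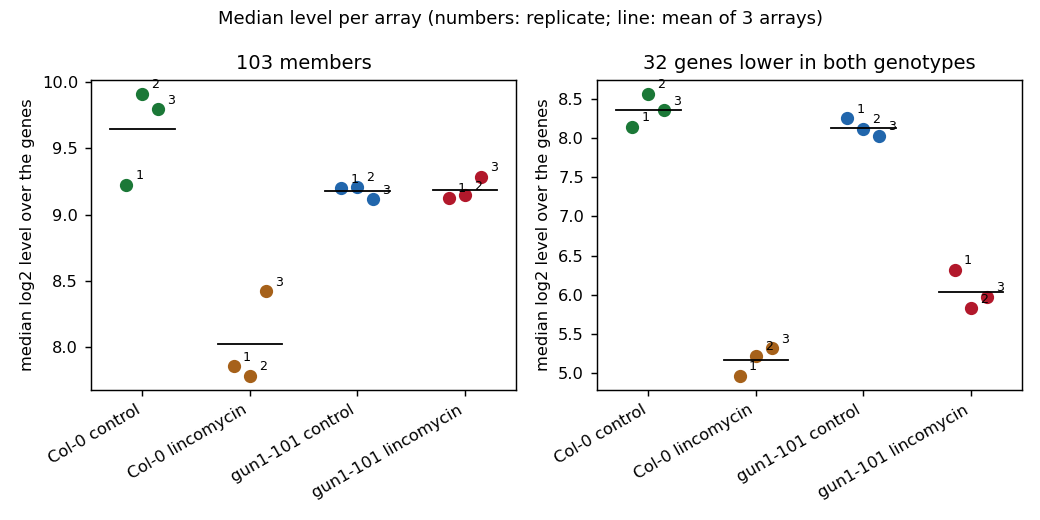
Median log2 signal (vertical axis) on each of the 12 arrays over the 103 members (left) and over 32 locus-tag genes lower in both genotypes (right), each point 1 array with its replicate number and each line the mean of 3. In the left panel untreated Col-0 replicate 1 (9.23) lies with the gun1-101 arrays (9.12 to 9.28), below the other untreated Col-0 arrays (9.91 and 9.79), and treated Col-0 replicate 3 (8.42) lies above the other treated Col-0 arrays.

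**Figure D4:**
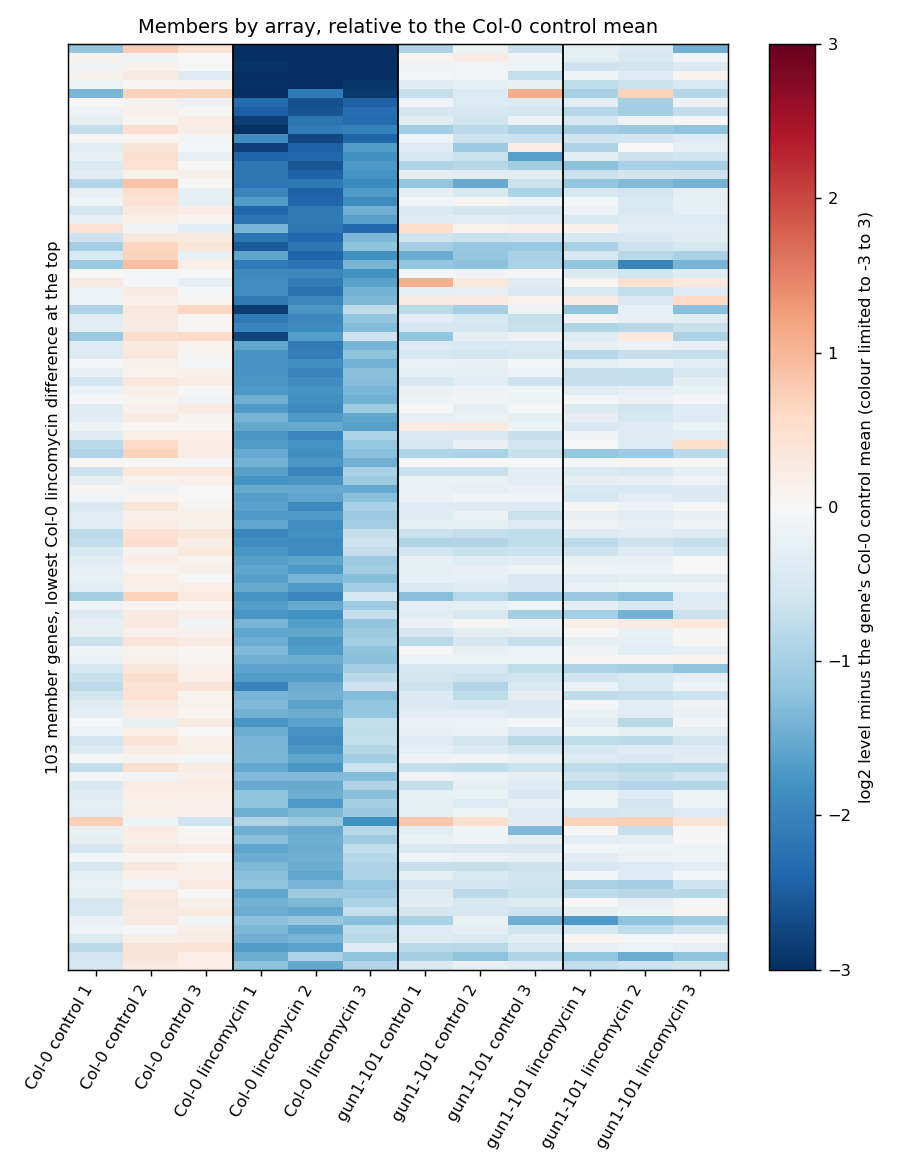
Signal of every member (rows, lowest Col-0 difference at the top) on every array (columns), as the log2 difference from the gene's untreated Col-0 mean, with colours limited to -3 to 3. The treated Col-0 columns are low, with all 3 arrays below all 3 untreated Col-0 arrays in 95 of 103 rows. Untreated Col-0 replicate 1 is lower than replicates 2 and 3 in most rows, 86 of 103.

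Members with the widest spread were AT5G24210, AT1G65490 and AT5G20740. AT5G24210 read 6.89, 8.93 and 8.93 in untreated Col-0, 4.99, 6.13 and 5.38 in treated Col-0, 7.53, 7.84 and 9.34 in untreated gun1-101 and 7.29, 8.92 and 7.40 in treated gun1-101. Its gun1-101 groups overlapped with untreated Col-0, and the Col-0 difference of -2.75 had an SE of 0.63. AT1G65490 read 7.86, 9.50 and 9.56 in untreated Col-0 and 6.21, 7.33 and 8.35 in treated Col-0, so that its Col-0 groups overlapped. AT5G20740, with 7.56, 8.80 and 9.10 and then 5.64, 6.74 and 7.72, also overlapped between its Col-0 groups.

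In a check added after the data had been seen, the rule was applied with 1 array withheld, and its genes were then read on that array. Each difference set the withheld array against the mean of the other treatment's 3 arrays, which the choice had used. The values on the withheld array are thus only in part free of the choice. With untreated Col-0 replicate 1 withheld, 163 genes met the rule, of which 101 were among the 103. Their median Col-0 difference was -1.53 on the arrays used and -0.92 on the withheld array, where 46 of the 163 passed -1.2. With treated Col-0 replicate 3 withheld, 156 genes met the rule, and the medians were -1.51 on the arrays used and -0.97 on the withheld array. Withholding any of the other 4 Col-0 arrays gave 84 to 96 genes and medians of -1.84 to -1.65 on the withheld array. Withholding a gun1-101 array gave median gun1-101 differences between -0.08 and 0.06 on that array, and 82 to 89 of the 99 to 107 genes then lay within 0.5 of 0.

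The rule set no threshold on untreated gun1-101 against untreated Col-0, although it used the untreated Col-0 arrays. Because it asked for a high untreated Col-0 signal and a fall from it, it favours genes that read high on those arrays, and the members' direction in this contrast is given as a description. The median member difference, gun1-101 minus Col-0, was -0.41 on the log2 scale, with quartiles of -0.58 and -0.22 and a range of -1.21 to 0.35. It was below 0 in 97 of the 103. Limma called 0 members at an adjusted p under 0.05, where 0.0181% of all tested genes (3 of 16548) were called. At an unadjusted p under 0.05 there were 38 of 103 members, all lower in gun1-101, and 2105 of all 16548 genes, of which 1082 were lower. Across all tested genes the median difference was 0.02, and across the locus-tag genes that reached the signal level it was 0.00, with 49.9% of these below 0.

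All 3 untreated gun1-101 arrays lay below all 3 untreated Col-0 arrays in 33 members and above them in 0. Over all tested genes the shares were 7.16% below and 8.18% above. The size of the members' shift differed by Col-0 array. Set against untreated Col-0 replicate 1 alone, the untreated gun1-101 mean differed by a median of -0.07 and was lower in 68 members, while against replicates 2 and 3 it differed by -0.60 and -0.56 and was lower in 96 and 94. In 76 members the untreated gun1-101 mean was within 0.2 of untreated Col-0 replicate 1. No such share was counted over all tested genes, whose median difference from that array was -0.0001. Nothing about the members is therefore read from the count of 76.

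Without untreated Col-0 replicate 1, the limma fit called 26 members lower and 0 higher, against 3.78% of all tested genes called lower, and the members' median was -0.59. Leaving out treated Col-0 replicate 3 as well gave 60 members lower against 9.9% of all tested genes. With array weights, which give noisier arrays less influence, 42 members were called lower against 6.9%. In all 3 of these fits 0 members were called higher. These counts come from arrays that the rule used, and replicate 1 was singled out after its low member values were seen, so they are not read as support for a genotype difference. The rule was also applied with untreated Col-0 replicate 1 withheld, and untreated gun1-101 was compared with that array alone. The untreated gun1-101 arrays had still taken part in that choice. Over the 163 genes chosen that way, the median difference was -0.02. Withholding replicates 2 and 3 in the same way gave -0.51 and -0.46, with 74 of 84 and 84 of 96 genes below 0.

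AT1G65870 had the most negative untreated difference. It read 7.21, 8.34 and 7.45 in untreated Col-0 and 6.18, 6.52 and 6.69 in untreated gun1-101, without overlap, a difference of -1.21 ± 0.29 (SE) with a limma adjusted p of 0.30. In gun1-101 its treated arrays, at 7.18, 6.83 and 6.70, were above the untreated ones. AT3G51230, whose arrays are given above, had the lowest adjusted p among the members, 0.274, at a difference of -1.04 ± 0.23 (SE). Without untreated Col-0 replicate 1 that gene's difference was -1.33, with a limma adjusted p of 0.0141.

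AT4G01390 read 7.70, 9.44 and 8.60 in untreated Col-0 and 7.41, 7.06 and 7.93 in untreated gun1-101. AT3G16530 read 7.57, 9.58 and 8.87 in untreated Col-0 and 7.53, 7.45 and 7.72 in untreated gun1-101. Both differed by -1.11 between the genotypes, with overlapping arrays, since Col-0 replicate 1 sat among the mutant values, and limma's adjusted p was 0.339 and 0.352. AT1G22690 read 8.81, 10.47 and 10.17 in untreated Col-0 and 8.80, 8.68 and 8.69 in untreated gun1-101, a difference of -1.10 with a limma adjusted p of 0.352. AT5G45700 read 7.34, 9.02 and 8.62 in untreated Col-0 and 7.04, 7.48 and 7.22 in untreated gun1-101, a difference of -1.08 with a limma adjusted p of 0.367. Again Col-0 replicate 1 was the array closest to the mutant.

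Some members went the other way. AT5G09570 had the largest positive untreated difference, 0.35, and is named after its values were seen. It read 7.74, 7.45 and 7.24 in untreated Col-0 and 8.55, 7.80 and 7.14 in untreated gun1-101, so the groups overlapped. With lincomycin it read 5.60, 5.38 and 5.88 in Col-0 and 7.56, 7.93 and 7.80 in gun1-101. Unlike in most members, replicate 1 was the highest of its untreated Col-0 arrays.

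**Figure D5:**
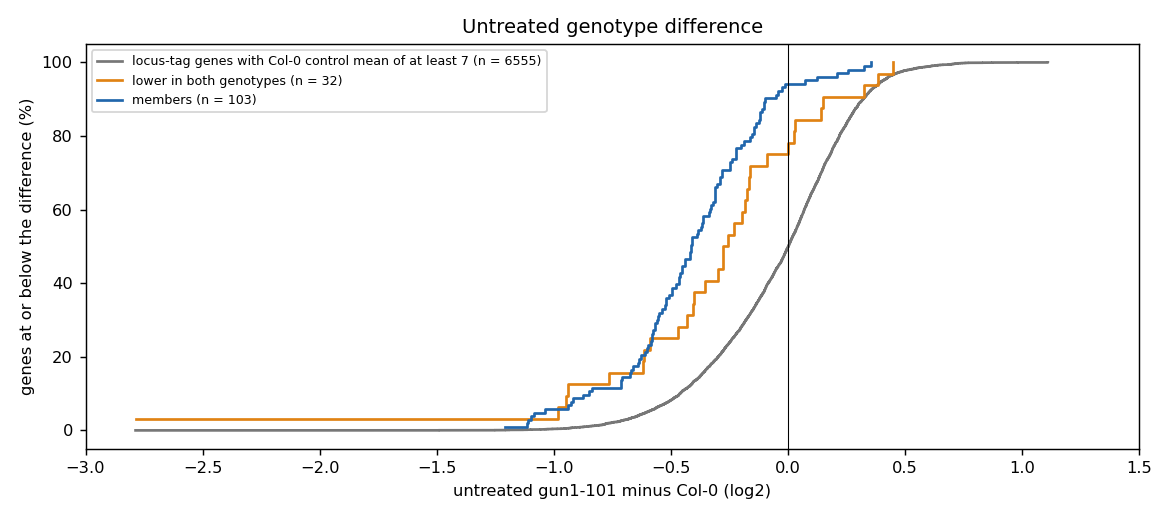
Share of genes (vertical axis, percent) at or below each untreated gun1-101 minus Col-0 difference (horizontal axis, log2) for the 103 members, the 32 genes lower in both genotypes and the 6555 locus-tag genes that reached the signal level. The members' curve lies left of that of the 6555 genes, with medians of -0.41 and 0.00, and 97 of 103 members are below 0.

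Among locus-tag genes past both Col-0 thresholds, 32 were lower by at least 1.2 in gun1-101 as well, 42 lay between -1.2 and -0.5 there, and 19 lay above 0.5. The 32 lowered in both genotypes had a Col-0 median of -2.95 and a gun1-101 median of -1.98, both fixed in part by how they were picked. Their untreated difference had a median of -0.27 and was below 0 in 25 of 32. Without untreated Col-0 replicate 1, limma called 2 of the 32 lower, where 3.78% of all tested genes were called lower. The 103 members had -0.41, 97 of 103 and 26 of 103 for the same measures. A test of the difference between these sets was not made, and nothing is called particular to the members from it.

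Genes of photosynthesis lists were read beside the members. Of 103 loci in lists for the antenna, the photosystems, electron transport and ATP synthase, the Calvin cycle and tetrapyrrole synthesis, 20 were measured, none of them a member, although AT1G56190 and AT1G80380 also have only a locus tag. In Col-0, limma called 18 of the 20 lower and 0 higher on lincomycin, with a median of -1.67, and in gun1-101 it called 7 lower and 1 higher, with a median of -0.22. The interaction test called the response of 18 higher in gun1-101. Members had medians of -1.496 and -0.05. Since these comparisons use the same arrays as the members' values, they are set side by side as a description.

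By role, the 4 antenna genes fell in Col-0 and 1 of them fell in gun1-101. LHB1B2, a light-harvesting protein of photosystem II, differed by -4.36 ± 0.25 (SE) in Col-0 and -0.50 in gun1-101. Photosystem subunits were called lower in 4 of 4 in Col-0 and 0 of 4 in gun1-101, PSAE-1 of photosystem I at -3.09 and -0.20. Of 5 measured genes on the Calvin cycle list, 4 fell in Col-0 and 3 fell in gun1-101, among them PRK, phosphoribulokinase, at -2.82 and -1.10. The gene not called in Col-0 was AT1G80380, at -0.20, and its place in the cycle was not checked. Tetrapyrrole synthesis had 5 of 6 lower in Col-0 and 2 lower in gun1-101, with PORB, a protochlorophyllide oxidoreductase, at -3.40 and -0.96. HEMA2, a glutamyl-tRNA reductase, rose in gun1-101 by 1.09 and stood at 0.11 in Col-0, uncalled. ATPC1, the gamma subunit of the plastid ATP synthase, fell by 1.85 in Col-0 and 0.50 in gun1-101. Of 2 measured genes of a signalling list, FUG1, a plastid translation factor, fell by 0.67 in Col-0 and 0.42 in gun1-101, and the transcription factor HYH rose by 0.63 in gun1-101 and stood at 0.35 in Col-0, uncalled, with the difference between genotypes also not called.

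Position along the chromosomes was read from gene order in RefSeq only. The members numbered 32, 20, 15, 15 and 21 on chromosomes 1 to 5. The share on chromosome 1 was 31.1% against 25.8% of locus-tag genes that reached the signal level, and on chromosome 3 it was 14.6% against 20.3%. AT2G32550 and AT2G32560 were direct neighbours, with Col-0 differences of -2.44 and -1.31, and AT2G32500 lay 5 genes away at -1.58. Between AT2G32500 and AT2G32550, the tested genes AT2G32520 and AT2G32530 had 0.25 and -0.52. AT5G66520 and AT5G66530 were also direct neighbours, at -1.56 and -1.66. The 124 tested direct neighbours of members that were not members had a Col-0 median of -0.02, and 5 of them lay at -1.2 or below. All 16548 tested genes had a Col-0 median of 0.02, and 341 of them lay at -1.2 or below.

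AT2G40010 was the only member with a second probe set. The chosen probe set gave Col-0 and gun1-101 differences of -1.36 and -0.29, and the other gave -1.28 and -0.25. In the chosen one, treated Col-0 arrays read 8.13, 8.27 and 9.16, and in the other 5.76, 5.84 and 6.63. Replicate 3 was the highest treated Col-0 array in both.

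Across the 103 members, the Col-0 and gun1-101 lincomycin differences had a Pearson correlation of 0.24 (Spearman 0.20), which the narrow gun1-101 window limits. Untreated signals in Col-0 and gun1-101 correlated at 0.97 (Spearman 0.98). The Col-0 difference and the untreated Col-0 signal correlated at 0.28, and they share the untreated Col-0 arrays. In 8 members the treated gun1-101 mean exceeded the untreated Col-0 mean, and in the other members it was lower.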

How the data were processed

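Total RNA was labelled as biotinylated cRNA for Affymetrix arrays, per the labels' protocols. The deposited values are log2 signals, and per the submitters' processing notes the authors made them by RMA, with Expression Console 1.3 of Affymetrix. RMA includes quantile normalisation between arrays, so shifts of whole arrays are removed. The sources name neither the array design nor its genome build. Of 38408 probe sets, 16722 had 1 gene in the platform annotation, 759 several and 20927 none. Those with several or none were not used. The probe set with the highest mean stood for each of 16548 genes, and 148 genes had more than 1. RefSeq's TAIR10.1 table gave names and gene order only.

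Groups came from the labels. Fits used limma 3.58.1 in R 4.3.3 (lmFit and eBayes) over all 16548 genes and 4 groups of 3 arrays, with Benjamini-Hochberg adjustment, and were tested on simulated data. The number of arrays limits the precision. The members and lists were chosen with earlier results of these data known. Named genes are the 12 lowest Col-0 differences, the 5 strongest signals, the members at the thresholds, the 5 largest untreated differences, members whose RefSeq words name a plastid part, the 3 widest spreads, neighbouring members and members with a second probe set; exceptions are marked. Alternatives were each array left out, other thresholds, array weights, other scalings and a replicate block. Correlations of deviations between arrays of the same number ran from -0.30 to 0.44, so the numbers were not taken as pairs. Sequences were not used here.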

Additional observations from a re-analysis of the deposited data

Results flagged for a closer look

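In 18 of the 20 measured genes of the photosynthesis lists, the lincomycin response differed between gun1-101 and Col-0 in limma's interaction term, and the difference was above 0 in each. The largest was in LHB1B2, at 3.86 ± 0.35 (SE) with a limma adjusted p of 0.000149, and the smallest called was in RCA, at 0.79 ± 0.17 (SE) with a limma adjusted p of 0.0221. GSA1 at 0.49 and AT1G80380 at 0.16 were not called.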

How the results depend on the processing

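Membership moved with the arrays and thresholds. Leaving out each array in turn gave 84 to 163 members (163 without untreated Col-0 replicate 1, 156 without treated Col-0 replicate 3), and 59 of the 103 met the rule every time. Leaving out untreated Col-0 replicate 1 and treated Col-0 replicate 3 together gave 219, group medians in place of means gave 169, a Col-0 threshold of -1 gave 172 and one of -1.5 gave 51. Members called lower in untreated gun1-101 numbered 0 to 26 with each array left out. They numbered 26 without untreated Col-0 replicate 1, 60 with both arrays left out and 42 with array weights. Of all tested genes, 3.78%, 9.9% and 6.9% were called lower in the same fits, in that order. The members' median untreated difference ran from -0.59 to -0.28 with each array left out. In an alternative chosen after seeing the data, untreated Col-0 replicate 1, 2 or 3 was withheld from the choice and compared alone. The 163, 84 and 96 genes chosen that way, not the 103 members, had medians of -0.0165, -0.51 and -0.46. The members' median Col-0 difference ran from -1.71 to -1.38 with each array left out and was -1.92 without both arrays. The genes chosen with untreated Col-0 replicate 1 or 2 withheld had Col-0 medians of -0.92 and -1.80 against that array alone. The members' gun1-101 median ran from -0.08 to 0.01 with each array left out. Photosynthesis list genes called lower stayed at 18 in Col-0 and ran from 5 to 8 in gun1-101 with each array left out. With the replicate number as a block, 0 members were called untreated, and 18 and 7 list genes were called lower in Col-0 and gun1-101, the same counts as without it. Which genes were called was not compared, and the other calls were not refitted with the block. Of 135 recomputed summary values, 122 were labelled as kept and 13 as moved. Counts above 0 were labelled kept within 1.5-fold of the reported count, and medians within 0.28 of the reported median. Some values could not change, such as the gun1-101 median when a Col-0 array was left out. The tally is therefore not read as a measure of stability. With 3 arrays a group and no scanner signals used here, signal over background was not assessed.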
